A study of Mus musculus with 6 samples.

Results

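Collagens are the triple-helical proteins of the extracellular matrix, and the genes of their chains were followed here in mouse brain, in controls and in mice given oil palm phenolics (OPP), a water-soluble extract of the oil palm fruit. Members were all probes whose platform gene symbol is Col, a number, a and a number, which gave 52 probes of 36 genes among the 24048 probes of the array. They were divided into fibrillar collagens (10 genes, 15 probes), basement membrane collagens (8 genes, 10 probes) and other collagens (18 genes, 27 probes). The study asked how OPP in the drink changed gene expression in the brain. The mice were males of BALB/c, an inbred albino strain, 12 weeks old and kept on a normal diet. Controls (n = 3) drank distilled water, and the OPP group (n = 3) drank OPP for 6 weeks at a strength of 1500 ppm gallic acid equivalent. Each brain had an Illumina MouseRef-8 array of its own, and the intensity of a probe is the brightness of the beads that carry it, which measures the amount of its transcript.

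In healthy brain, collagen is sparse in the tissue itself and is concentrated in the meninges and in the sheets of basement membrane around blood vessels. Fibrillar collagens form the ropes of connective tissue such as the meninges. Type IV collagen forms the network of the basement membrane, built mostly of alpha 1 and alpha 2 chains, while type XVIII collagen is a heparan sulfate proteoglycan of the same sheet that releases the anti-angiogenic fragment endostatin when it is cut. Other collagens form beaded filaments, decorate fibrils or span the cell membrane.

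Most collagen probes did not rise above background in these brains. A probe was tested where its mean detection level (1 minus the detection p-value) was over 0.99 in at least 1 group, and this held for 8 of the 52 collagen probes (15.4%), in 7 genes, against 7611 of all 24048 probes (31.6%). Above background on no array were 43 collagen probes (82.7%), against 14999 of all probes (62.4%). Of the fibrillar genes only *Col5a1* was tested, and *Col1a1*, *Col1a2*, *Col2a1*, *Col3a1*, *Col5a2*, *Col5a3*, *Col11a1*, *Col11a2* and *Col27a1* were not above background on any array. Of the basement membrane genes *Col4a1*, *Col4a2* and *Col18a1* were tested, and *Col4a3*, *Col4a4*, *Col4a5*, *Col4a6* and *Col15a1* were not above background on any array. The tested genes of the third class were *Col6a1*, *Col16a1* and *Col23a1*, and 15 genes had no tested probe, namely *Col6a2*, *Col6a6*, *Col7a1*, *Col8a1*, *Col8a2*, *Col9a1*, *Col9a2*, *Col9a3*, *Col10a1*, *Col13a1*, *Col14a1*, *Col17a1*, *Col19a1*, *Col25a1* and *Col26a1*. Among these 15, *Col13a1*, which encodes a transmembrane collagen of synapses between nerve and muscle, was above background on 1 control and 1 OPP array, and the other 14 on none.

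**Figure D1:**
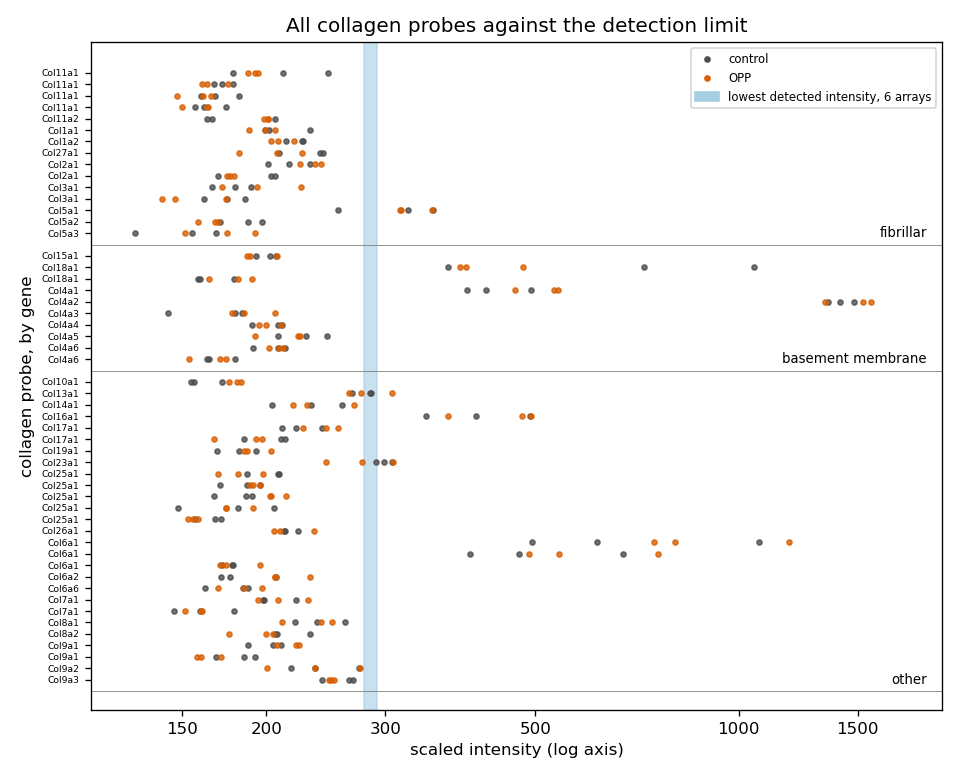
Scaled intensity (horizontal log axis, arbitrary units) of each of the 52 collagen probes (1 row each) in the 6 brains, grey for control and orange for OPP, with a band at the lowest intensity that counted as detected on each array (279.4 to 291.4). The 8 tested probes lie at or to the right of the band in most brains, and 43 of the other 44 probes counted as detected in no brain.

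The 44 untested probes read 127.6 to 306.8 scaled units over the 6 arrays, with a median of 192.9, while the dimmest probe that counted as detected read 279.4 to 291.4 depending on the array. Their readings overlapped between the classes: the 14 untested fibrillar probes ran from 127.6 to 246.8, the 7 basement membrane probes from 143.2 to 246.1 and the 23 others from 145.8 to 306.8. A reading at background does not show that the transcript was missing, because the probes of *Snap25*, a synaptic vesicle fusion gene of neurons, and of *Gfap*, the intermediate filament gene of astrocytes, were also not above background on any of the 6 arrays. The brain label was borne out by *Syt1*, *Map2*, *Aqp4* and *Mbp* (neurons, astrocytes and oligodendrocytes), which were above background on all 6.

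Control replicate 2 stood apart from the other brains, so results were also computed without it. The scaled intensities of 5 granulocyte markers summed to 26488 in it, while control replicates 1 and 3 reached 2981 and 3861 and the OPP brains 1402 to 1674. Those of 4 cerebellar markers summed to 2156 in it, compared with 10652 and 7759 for control replicates 1 and 3 and with 2920 to 4435 for the OPP brains. Collagen probes above background numbered 9, 6 and 8 in control replicates 1, 2 and 3, and 8, 8 and 7 in the OPP brains. Over all probes, 7442 to 7903 were above background per array, the median intensity was 205.4 to 244.8, and the correlation between arrays was 0.969 to 0.987 on log2 intensities. The methods state that more arrays were hybridized and that outlying ones were removed before the comparison, so the spread given here is that of the brains kept. They house 5 mice per cage, which is also the number per group in the behavioural tests, and if cage and drink coincided their effects cannot be told apart. Whether the whole of each brain was extracted is not stated. These are bulk samples, in which fewer cells of a type and less RNA per cell cannot be told apart.

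The alpha 1 and alpha 2 chains of type IV collagen come from genes that lie head to head and are read in opposite directions from a shared promoter. The RefSeq windows from 250 bases before to 50 bases after each start site (GRCm38.p6) are chr8:11312777-11313076 on the minus strand for *Col4a1* and chr8:11312555-11312854 on the plus strand for *Col4a2*, so that they share 78 bases (chr8:11312777-11312854) and their start sites are 21 bases apart. The sequences are shown because this is the only neighbouring pair of collagen genes, of 6 on the array, with both members tested, and each is written 5′ to 3′ on its own strand with capitals marking GC boxes (GGGCGG) and CCAAT boxes (CCAAT) on either strand.
Col4a1: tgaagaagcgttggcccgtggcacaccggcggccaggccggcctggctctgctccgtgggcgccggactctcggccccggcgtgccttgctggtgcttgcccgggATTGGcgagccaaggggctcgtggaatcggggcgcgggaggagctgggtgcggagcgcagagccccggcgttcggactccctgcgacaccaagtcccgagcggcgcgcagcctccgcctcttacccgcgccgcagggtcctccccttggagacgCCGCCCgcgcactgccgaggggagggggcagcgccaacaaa
Col4a2: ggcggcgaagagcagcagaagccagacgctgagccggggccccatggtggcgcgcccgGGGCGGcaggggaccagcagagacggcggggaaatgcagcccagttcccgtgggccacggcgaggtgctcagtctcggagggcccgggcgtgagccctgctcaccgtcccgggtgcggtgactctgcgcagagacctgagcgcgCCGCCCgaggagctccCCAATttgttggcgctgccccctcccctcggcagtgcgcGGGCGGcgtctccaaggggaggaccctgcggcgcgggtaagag
A GC box was found once in the *Col4a1* window and 3 times in that of *Col4a2*, each held 1 CCAAT box, and neither held TATAAA on either strand. The GC box of *Col4a1* and the last one of *Col4a2* are the same site in the shared bases, which is counted in both windows. Among all 32851 promoter windows of this length, 35.7% held the GC box, 37.4% the CCAAT box and 13.6% TATAAA. Of the 8 windows of the 7 tested collagen genes, 6 held the GC box, 4 the CCAAT box and 0 TATAAA. A match is a description of the letters and not of a working site.

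No basement membrane collagen differed between the groups beyond the spread of the brains. *Col4a1* (probe scl35102.50_84-S), the alpha 1 chain of the basement membrane network, read 396, 493 and 422 scaled units in control replicates 1, 2 and 3 and 533, 467 and 540 in OPP replicates 1, 2 and 3. The OPP mean was above the control mean (513 ± 40.2 against 437 ± 50.4, SD, n = 3 each), but control replicate 2 read higher than OPP replicate 2 and the groups overlapped. The log2 fold change, OPP minus control, was 0.23 (standard error 0.12, 95% confidence interval -0.03 to 0.50, unadjusted p = 0.0781 and adjusted p = 0.987 in limma). Without control replicate 2 it was 0.32 (standard error 0.12, unadjusted p = 0.0180, adjusted p = 0.341 in limma), and both remaining controls lay below all OPP brains.

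*Col4a2* (probe scl34083.48_466-S), the alpha 2 chain that winds together with alpha 1, read 1414, 1358 and 1484 in control brains and 1529, 1344 and 1568 in OPP brains. The lowest and the highest values were both from the OPP group, and the groups overlapped fully. Its log2 fold change was 0.06 (standard error 0.10, 95% confidence interval -0.18 to 0.29, unadjusted p = 0.584 and adjusted p = 0.995 in limma), and 0.03 without control replicate 2. Across the 6 brains the log2 levels of the 2 chains had a Pearson r of 0.42 (exact permutation p = 0.376) and a Spearman rho of 0.543 (exact permutation p = 0.297), and adjustment over the 2 relations computed left both p-values as they were. Without the 2 brains farthest from the *Col4a1* median on the log2 scale (control replicates 1 and 3) r was 0.959, so the relation changed with those brains. Of 12 pairs of collagen chains planned for this comparison, this was the only one with both genes tested.

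*Col18a1*, the collagen XVIII gene, had the log2 fold change farthest from 0 of the 7 tested genes. Its brighter probe (scl37787.43_431-S) read 1054, 371 and 725 in control brains and 395, 480 and 387 in OPP brains. Control replicates 1 and 3 lay above every OPP brain while control replicate 2 lay below every OPP brain, so the groups overlapped and the control spread was wide (717 ± 342 against 421 ± 51.8, SD, n = 3 each). The log2 fold change was -0.65 (standard error 0.31, 95% confidence interval -1.36 to 0.06, unadjusted p = 0.0677 and adjusted p = 0.987 in limma). It depended on single controls: it was -1.06 without control replicate 2 (standard error 0.17, unadjusted p = 6.62e-05, adjusted p = 0.0630 in limma) and -0.31 without control replicate 1 (unadjusted p = 0.252 in limma). The second *Col18a1* probe was not above background on any array.

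*Col18a1* has 2 RefSeq start sites in the promoter table, both on the minus strand, at chr10:77166481-77166780 and chr10:77113656-77113955. Both windows are shown because they differ in the motifs they hold, and the files do not say which transcript each probe reads.
Col18a1, first window: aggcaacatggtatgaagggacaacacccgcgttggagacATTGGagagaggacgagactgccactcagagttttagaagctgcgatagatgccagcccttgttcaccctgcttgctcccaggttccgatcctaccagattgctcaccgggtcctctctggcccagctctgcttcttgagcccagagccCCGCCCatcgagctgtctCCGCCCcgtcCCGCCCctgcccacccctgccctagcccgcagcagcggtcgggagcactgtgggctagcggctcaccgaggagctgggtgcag
Col18a1, second window: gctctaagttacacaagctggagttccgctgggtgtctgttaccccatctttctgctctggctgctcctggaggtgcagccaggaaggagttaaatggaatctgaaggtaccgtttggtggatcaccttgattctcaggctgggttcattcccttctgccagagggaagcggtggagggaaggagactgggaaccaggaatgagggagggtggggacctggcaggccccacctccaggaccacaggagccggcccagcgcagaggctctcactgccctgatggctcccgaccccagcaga
The first window held 3 GC boxes and 1 CCAAT box (capitals), and the second held neither motif, and TATAAA was in neither.

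The order of the brains by *Col18a1* was close to their order by cerebellar markers. The summed scaled intensity of the 4 tested cerebellar markers (*Cbln1*, *Zic1*, *Neurod1* and *Cdh15*) ran 10652, 2156 and 7759 for control replicates 1, 2 and 3 and 4435, 4350 and 2920 for the OPP brains, all 4 had a log2 fold change below 0, and the defining markers *Cbln3*, *Gabra6* and *Barhl1* were not above background on any array. By both measures control replicate 1 was first, control replicate 3 next, OPP replicate 3 last but one and control replicate 2 last. With all 6 brains the log2 fold change of *Cbln1* was -0.63, of *Zic1* -0.45, of *Cdh15* -0.27 and of *Neurod1* -0.07. Their unadjusted p in limma was 0.402, 0.232, 0.158 and 0.673 in that order. Without control replicate 2 the log2 fold changes were -1.63, -0.95, -0.42 and -0.24 in that order. That brain was set apart partly for its low sum of these markers, so these larger differences are not independent of leaving it out. The choroid plexus markers (4 tested) summed to 11148, 4492 and 11748 in control brains and 8259, 8239 and 12173 in OPP brains, so that control replicate 2 had the lowest sum. The brightest of these markers was *Ttr*, at 9397, 3262 and 9802 in control brains. By gene, *Ttr*, *Clic6* and *Sostdc1* were lowest in control replicate 2, while *Aqp1* was highest there (451). The 8 tested endothelial markers summed to 8544 to 10214 in the controls and 7980 to 8226 in the OPP brains. These sums did not overlap, but by gene only *Esam* had all OPP values below all controls, as 5.18% of all tested probes had. The other tested endothelial markers overlapped between the groups. Of the 8, 6 lay below 0, and *Tek*, *Tie1*, *Slco1a4* and *Kdr* were not above background. The part of these levels in the *Col18a1* values was not tested.

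**Figure D2:**
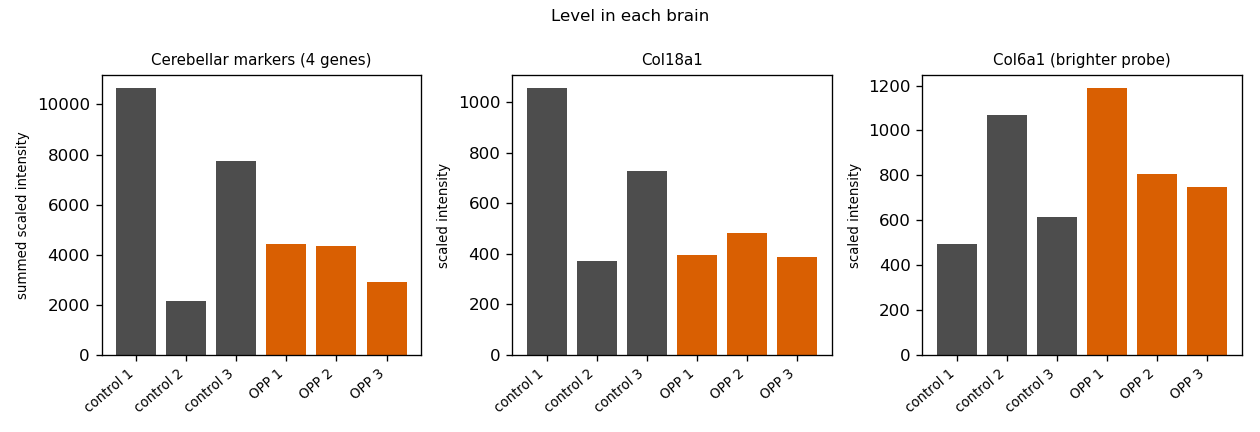
Level in each brain (arbitrary scaled intensity units, vertical axes from 0), grey bars for control and orange for OPP: the sum of 4 cerebellar marker genes, *Col18a1* and the brighter *Col6a1* probe. Control replicates 1 and 3 are highest and control replicate 2 lowest in the first 2 panels, while in the *Col6a1* panel control replicate 2 and OPP replicate 1 are high.

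The mean log2 level of the 3 basement membrane collagens of control replicates 1, 2 and 3 was 9.71, 9.30 and 9.59, and that of OPP replicates 1, 2 and 3 was 9.42, 9.39 and 9.43, so that the OPP brains lay inside the control range. Their median log2 fold change was 0.06, with 2 genes above 0 and 1 below.

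*Col5a1* (probe scl0012831.1_231-S), the only fibrillar collagen tested, encodes a chain of type V collagen, which starts and sizes the fibrils of types I and III. It read 324, 255 and 353 in control brains and 351, 316 and 315 in OPP brains and was above background in 2 of 3 controls and 3 of 3 OPP brains. Control replicate 2 was the lowest brain and control replicate 3 the highest, so that all OPP values lay inside the control range. The log2 fold change was 0.09 (standard error 0.13, 95% confidence interval -0.21 to 0.39, unadjusted p = 0.526 and adjusted p = 0.987 in limma), and it turned to -0.047 without control replicate 2.

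*Col6a1*, the alpha 1 chain of the beaded filaments of type VI collagen, was measured by 2 tested probes. The brighter probe (scl012833.1_126-S) read 495, 1071 and 616 in control brains and 1188, 805 and 750 in OPP brains. Control replicate 2 and OPP replicate 1 were the high brains of their groups, and the other controls lay below all OPP brains. The group means were 727 ± 304 for control and 914 ± 239 for OPP (SD, n = 3 each), the log2 fold change was 0.38 (standard error 0.27, 95% confidence interval -0.24 to 1.00, unadjusted p = 0.202 and adjusted p = 0.987 in limma), and the groups overlapped. It was 0.70 without control replicate 2 (standard error 0.19, unadjusted p = 0.00394, adjusted p = 0.197 in limma), 0.14 without control replicate 1 and 0.17 without OPP replicate 1.

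The dimmer *Col6a1* probe (scl37796.6_295-S) read 400, 674 and 472 in control brains and 760, 490 and 542 in OPP brains, with the same brains high in each group. Its log2 fold change was 0.22 (standard error 0.21, unadjusted p = 0.327 in limma), and 0.43 without control replicate 2 (standard error 0.18, unadjusted p = 0.0329, adjusted p = 0.416 in limma). Over the 6 brains the log2 levels of the 2 probes had a Pearson r of 0.967 (exact permutation p = 0.00417, adjusted over 2 relations 0.00834) and a Spearman rho of 0.943 (exact permutation p = 0.0167, adjusted 0.0334), and r was 0.901 without control replicate 1 and OPP replicate 1. This pair was chosen after its values were seen. The remaining *Col6a1* probe and the probe of *Col6a2*, whose chain joins the same molecule and whose gene is the neighbour of *Col6a1*, were not above background on any array.

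*Col16a1* (probe scl24899.72.1_88-S), a collagen that attaches to fibrils and to the cell surface, read 491, 344 and 409 in control brains and 372, 478 and 493 in OPP brains. Low and high values fell in both groups. The difference on the log2 scale, OPP minus control, was 0.11 (standard error 0.16, 95% confidence interval -0.25 to 0.47, unadjusted p = 0.492 and adjusted p = 0.987 in limma), and -0.014 without control replicate 2.

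*Col23a1* (probe scl0237759.29_189-S), a transmembrane collagen that can be shed from the cell surface, read 307, 291 and 299 in control brains and 277, 308 and 245 in OPP brains. It lay near the detection limit, above background in 2 of 3 controls and 1 of 3 OPP brains, and OPP replicate 2 was above all controls while the other OPP brains were below them. Its log2 fold change was -0.12 (standard error 0.11, 95% confidence interval -0.37 to 0.13, unadjusted p = 0.316 and adjusted p = 0.987 in limma). The mean log2 level of the 3 tested genes of this class was 8.72, 8.89 and 8.72 for control replicates 1, 2 and 3 and 8.96, 8.94 and 8.81 for OPP replicates 1, 2 and 3, and control replicate 2 lay within the OPP range.

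**Figure D3:**
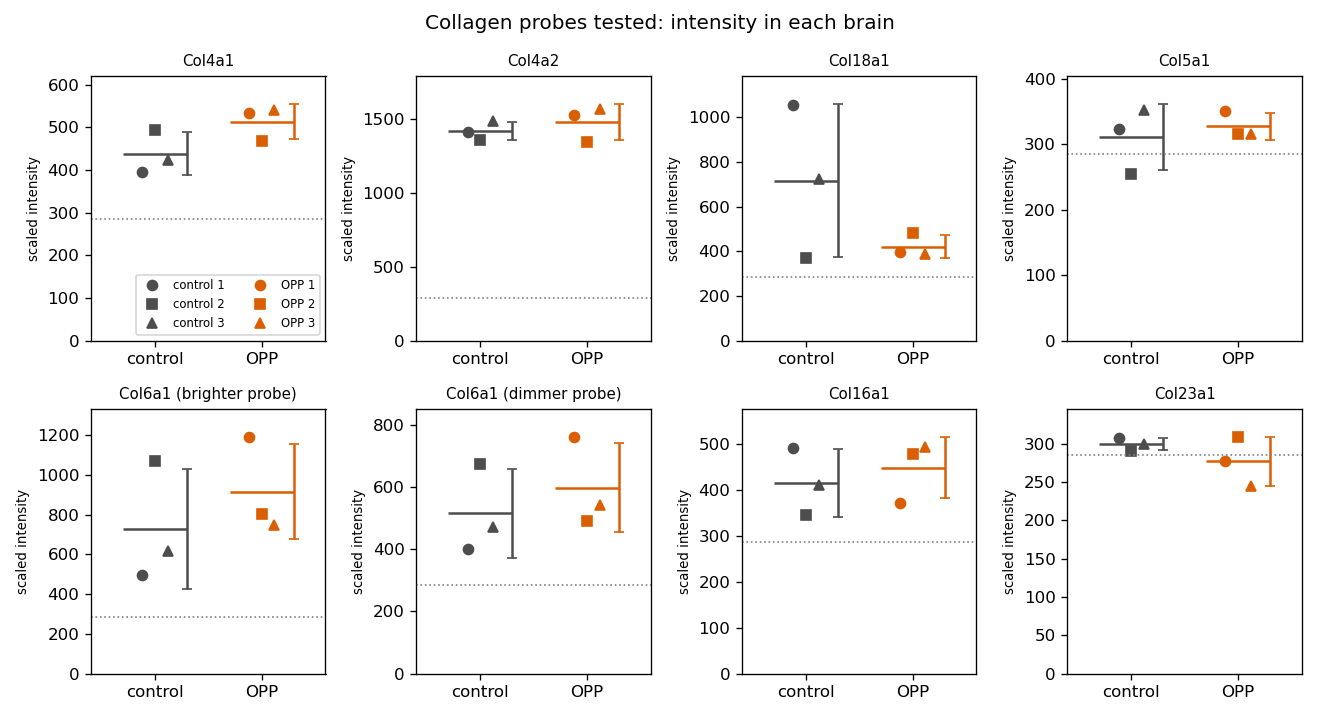
Scaled intensity (arbitrary units, axes from 0) of the 8 tested collagen probes in each brain, with a symbol for each replicate, a line at the group mean, a bar of 1 SD on either side (n = 3) and a dotted line at the mean detection limit of the 6 arrays. Control and OPP values overlap in all 8 panels, with control replicate 2 (grey square) apart from the other controls for *Col18a1* and *Col6a1*.

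Counted together, 5 of the 7 tested collagen genes had a log2 fold change above 0 and 2 below, with a median of 0.09, while 3790 of all 7611 tested probes lay above 0 and 3821 below, with a median of -0.000553. *Col5a1* passed the detection filter only through the OPP group (mean detection level 0.9988, against 0.9799 in controls). *Col23a1* passed only through the controls (0.9936, against 0.9763 in OPP brains). The directions of these genes are thus not independent of the filter. At an unadjusted p under 0.05 in limma, 0 collagen genes were higher and 0 lower, against 130 (1.71%) and 168 (2.21%) of all tested probes. None passed an adjusted p under 0.05, as 1 (0.0131%) of all probes did. In 0 of the 7 genes did the 3 OPP values lie all above or all below the 3 control values, which they did in 4.31% and 5.18% of all tested probes. An exact two-sided permutation test on each gene gave p = 0.2 to 0.9, and the smallest p that 3 brains against 3 can give is 0.1. With 7 genes, shares as small as those of all probes correspond to less than 1 gene. The p-values measure the spread between these brains alone.

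Without control replicate 2 the counts changed. At an unadjusted p under 0.05 in limma, *Col4a1* and *Col6a1* were higher and *Col18a1* lower, while 301 (3.95%) of all tested probes were higher and 480 (6.31%) lower. In the same 3 genes the OPP values did not overlap the 2 remaining controls, which held upward for 11.4% and downward for 16.6% of all tested probes. The number of collagen genes above 0 fell from 5 to 3 and their median from 0.088 to -0.014. None had an adjusted p under 0.05, which 7 of all probes had.

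**Figure D4:**
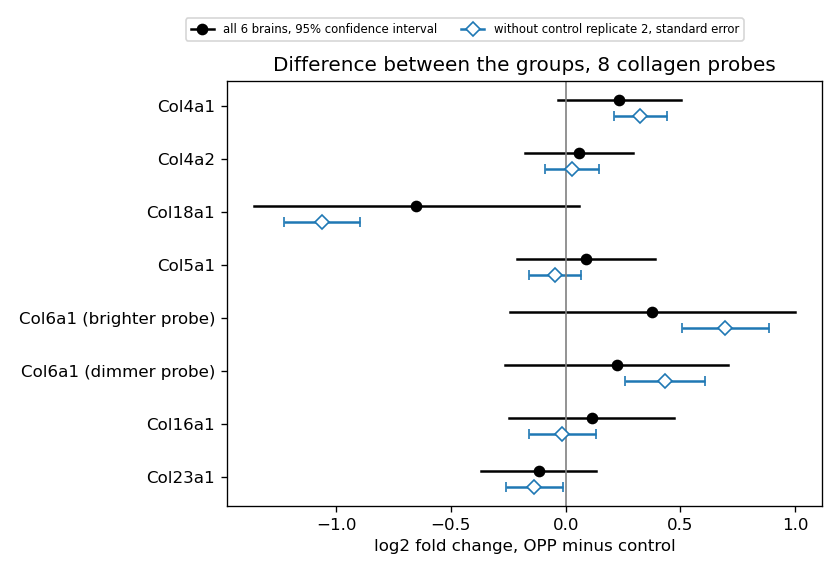
Log2 fold change, OPP minus control, of the 8 tested collagen probes: black points with 95% confidence intervals from all 6 brains, and open diamonds with standard errors without control replicate 2. All black intervals cross 0. The diamonds of *Col18a1*, *Col4a1*, both *Col6a1* probes and, by a small step, *Col23a1* lie farther from 0 than the black points.

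Genes that make, bind or break down collagen were read from lists of partners. Of 26 enzymes and chaperones of collagen synthesis and processing, 11 were tested, with 6 above 0 and 5 below (median log2 fold change 0.01), and 1 was lower at an unadjusted p under 0.05 in limma, as 2.21% of all tested probes were. This was *P4hb*, which encodes the beta subunit of prolyl 4-hydroxylase, also known as protein disulfide isomerase. It read 2204, 2173 and 2273 in control brains and 1882, 1853 and 1935 in OPP brains, so that all OPP brains lay below all controls, as in 5.18% of all tested probes. The log2 fold change was -0.23 (standard error 0.09, unadjusted p = 0.0328 and adjusted p = 0.987 in limma), and -0.24 without control replicate 2. The enzyme acts on proteins of many kinds, and collagen is only one of its substrates. The subunit that binds collagen in that enzyme, *P4ha1*, gave a log2 fold change of 0.12 (standard error 0.16, unadjusted p = 0.473 in limma) with overlapping groups, and *Serpinh1*, the chaperone specific to collagen, one of 0.07 (standard error 0.12, unadjusted p = 0.584 in limma; -0.03 without control replicate 2), both chosen after their values were seen.

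Of 15 non-collagen basement membrane genes 5 were tested, with 1 above 0 and 4 below (median -0.03), and 0 passed an unadjusted p under 0.05 in either direction in limma. In 2 of the 5 the OPP values lay below all controls, as they did in 5.18% of all tested probes, and these are named here after their values were seen. They were *Hspg2*, which encodes perlecan, the main heparan sulfate proteoglycan of the sheet (335, 382 and 336 in control brains, 313, 273 and 308 in OPP brains, log2 fold change -0.24, standard error 0.11), and *Nid1*, which encodes nidogen 1, the link between laminin and type IV collagen (349, 334 and 338 in control brains, 310, 300 and 295 in OPP brains, -0.17, standard error 0.09). Their unadjusted p was 0.0534 and 0.0887 in limma. *Hspg2* was above background in 3 of 3 controls and 2 of 3 OPP brains, and *Nid1* in 3 of 3 of each. The OPP values of both lay near the detection limit. *Lamb2* and *Lamc1*, laminin chains, and *Agrn*, the proteoglycan agrin, overlapped between the groups.

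The remaining partners were few on the tested part of the array. The 5 lysyl oxidases, which cross-link collagen, were not above background on any array. The transglutaminase gene *Tgm2*, the sixth cross-linking gene, had a difference of -0.14 on the log2 scale (standard error 0.09, unadjusted p = 0.158 in limma). All its OPP values lay below all controls, as in 5.18% of all tested probes. Of 10 collagen receptors 2 were tested, the integrin gene *Itgb1* at 0.04 and the discoidin receptor gene *Ddr1* at -0.14. Of 16 matrix proteins that bind fibrils 3 were tested (*Dcn*, *Prelp* and *Sparc*), all below 0 with a median of -0.20 and overlapping groups, and 10 were not above background, *Lum*, *Fmod* and *Bgn* among them. Of 13 genes of collagen breakdown 6 were tested, with 3 above 0 and 3 below (median -0.06). Among these, *Mmp3*, which encodes the protease stromelysin 1, had all OPP values above all controls (268, 258 and 275 in control brains, 296, 301 and 289 in OPP brains), as 4.31% of all tested probes had. It was above background in 0 of 3 controls and 3 of 3 OPP brains. It thus passed the detection filter only through the OPP group, where it was high. Its direction and separation are therefore not independent of that filter. The log2 fold change of *Mmp3* was 0.14 (standard error 0.09, unadjusted p = 0.1499 in limma), and like *Tgm2* this gene is singled out after its values were seen. In these last lists 0 genes passed an unadjusted p under 0.05 in limma.

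Markers of the cells that make collagen were given the same reading. Of 16 markers of meningeal fibroblasts, the main makers of fibrillar collagen around the brain, 7 were tested, with 6 below 0, 1 above and 1 lower at an unadjusted p under 0.05 in limma, and their summed scaled intensity was 9018 to 11194 in the controls and 8242 to 9736 in the OPP brains. The defining markers *Lum*, *Ogn*, *Slc22a6*, *Aldh1a2*, *Slc6a20a* and *Fmod* were not above background on any array. The gene that was lower was *Apod*, which encodes the lipid carrier apolipoprotein D and is also expressed by glia, named after its values were seen. It read 1911, 2629 and 2326 in control brains and 1678, 1765 and 1192 in OPP brains, with all OPP values below all controls, as in 5.18% of all tested probes. Its log2 fold change was -0.58 (standard error 0.17, unadjusted p = 0.00887 and adjusted p = 0.987 in limma). The 4 tested markers of mural cells, the pericytes and smooth muscle of vessels, summed to 1899 to 2070 in the controls and 1697 to 1960 in the OPP brains, with 3 below 0 and 1 above. The granulocyte markers, 5 of 8 tested, were all lower at an unadjusted p under 0.05 in limma. So were 3 of the 8 endothelial markers, 1 of the 4 choroid plexus markers and 2.21% of all tested probes. *Ltf* was above background in 3 of 3 controls and 0 of 3 OPP brains, and *S100a9* and *Camp* in 3 of 3 and 1 of 3. These genes passed the detection filter through the controls, where they were high, so their direction is not independent of it. Of the 4 choroid plexus markers 2 lay above 0 and 2 below. The marker that was lower was *Aqp1*, a water channel gene (log2 fold change -0.37), named after its values were seen. This value is that of the brighter of its 2 tested probes. In the OPP brains that probe read 338, 274 and 317, near the detection limit. It was above background in 3 of 3 controls and 2 of 3 OPP brains. The 3 tested red blood cell markers summed to 12907 to 35165 in the controls and 12020 to 26983 in the OPP brains. The part of these levels in the collagen values was not tested.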

How the data were processed

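The 6 arrays measured total RNA of 3 control and 3 OPP brains. The deposited intensities are mean probe intensities with a detection p-value per probe, which the authors made from the bead readings with BeadStudio 1.5.1.3, without scaling between arrays. The number of arrays limits the precision. Columns of other samples numbered 0. The authors' own processed values were a straight line of the intensities on each array with background removed, and served as an alternative.

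Intensities were scaled to the mean of the 6 arrays on probes of invariant rank (factors 0.902 to 1.06). These lay between the 50th and 90th percentile of rank in that mean, and moved from it by less than 5% of their own rank. Values under 10 were set to 10, and log2 was taken. Background was left in, so fold changes of dim probes are smaller than on background-subtracted values. The 7611 tested probes were compared with limma 3.58.1 (lmFit and eBayes, R 4.3.3) with p-values adjusted (Benjamini-Hochberg) over all of them. limma stood in for the Illumina Custom error model of the methods, which needs the spread of the beads. The fit was tested on simulated data.

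Groups came from the sample labels. Of the probes, 19398 had 1 gene symbol and 0 several. A gene was represented by its brightest tested probe. Named were all collagen genes with a tested probe and, of each partner list, up to 3 genes with the smallest unadjusted p among those under 0.05. Members and lists were chosen with earlier results of these data known. Of 166 listed partner and marker genes 146 were on the array. Promoters came from a RefSeq table, in which 29 of the 36 genes had a window. Alternatives were other scalings, background correction, the authors' values, other filters, array weights, the mean of a gene's probes, a replicate block and leaving out each brain.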

Additional observations from a re-analysis of the deposited data

How the results depend on the processing

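No alternative gave a collagen gene an adjusted p under 0.05 in limma. Of 103 values of the 7 genes under the alternatives, 92 kept their direction and their side of an unadjusted p of 0.05, 7 passed it and 4 changed sign. The sign changes were *Col4a2* (-0.014) and *Col5a1* (-0.037) with array weights, and *Col16a1* (-0.014) and *Col5a1* (-0.047) without control replicate 2. With array weights 2 genes were higher (*Col4a1* and *Col6a1*) and 1 lower (*Col18a1*), 3 lay above 0 and 4 below, the median was -0.014, and 279 of all probes were higher and 468 lower. With no filter 1 of 36 genes was lower (*Col18a1*, -0.65), 22 lay above 0 and 14 below, and 470 and 502 of all 24048 probes were higher and lower. With probes detected on all 6 arrays 5 genes were left, 1 below 0, and the median of the other collagens was 0.25. The median of all and of the other collagens was 0.21 with neqc and 0.22 on the authors' values, both of which remove background. Without scaling 147 probes were higher and 71 lower (67.4% higher, against 43.6% with scaling), and the median of all probes was 0.06.

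Leaving out 1 brain at a time gave 0 to 2 collagen genes higher, 0 to 1 lower, 3 to 5 above 0 and 2 to 4 below, a median of -0.014 to 0.125 for all and -0.014 to 0.174 for the other collagens, and 74 to 301 probes higher and 111 to 480 lower. The low ends of the probes higher came without control replicate 1 (74) and OPP replicate 3 (81), that of the probes lower without control replicate 3 (111), and both high ends without control replicate 2. Among the genes, *Col18a1* ranged from -1.06 to -0.31 over all alternatives (adjusted p 0.0630 to 1.00), *Col6a1* from 0.14 to 0.70, *Col4a1* from 0.17 to 0.39, *Col4a2* from -0.014 to 0.127, *Col16a1* from -0.014 to 0.243, *Col5a1* from -0.047 to 0.283 and *Col23a1* from -0.392 to -0.033. The far values of the last 2, 0.283 and -0.392, came from the authors' values. With 1 brain left out *Col5a1* reached 0.187, and *Col23a1* fell to -0.198 without OPP replicate 2, and without OPP replicate 3 it lay at -0.033. The cause of these changes was not tested.

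The labels give replicate numbers but state no pairing of the brains. Deviations from the group means correlated at -0.272, 0.05 and 0.171 for brains with the same number. For brains with unlike numbers they correlated at -0.308 to 0.291. Deviations within a group of 3 sum to 0, so these correlations cannot decide whether the numbers pair the brains. With the replicate block 98 probes were higher and 140 lower, against 130 and 168, with 0 collagen genes passing in either direction. Brightness over background limits the readings: 29 of 36 genes had no tested probe.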
